A study of Saccharomyces cerevisiae with 21 samples.

Results

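The intergenic gaps described here lie between neighbouring protein-coding ORFs that point toward each other, so that both genes end at the gap and neither starts there. They were taken from the R64 annotation, strand being read from the W or C of the locus name, and kept when they were 150 to 1500 bp long. Chromosome III, the first and last 20 kb of each chromosome and the rDNA on chromosome XII were left out. Of 1513 convergent gaps, 1002 met the rule, against 1287 divergent gaps (both genes start there) and 2435 tandem gaps (1 gene starts and 1 ends there), 4724 gaps in all. The gaps that were set aside comprised 401 shorter than 150 bp, 22 longer than 1500 bp, 37 on chromosome III, 50 near chromosome ends and 1 at the rDNA. Convergent gaps were the shortest class, with a median length of 282 bp against 491 bp and 394 bp for divergent and tandem gaps, and together they covered 355832 bp, or 16.1% of the base pairs in the 3 classes.

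Meiotic recombination starts when Spo11, a topoisomerase-like protein, cuts DNA and stays bound to both 5′ ends. In budding yeast most of these double-strand breaks (DSBs) form in the open, nucleosome-depleted DNA of promoters. Convergent gene ends hold terminators in place of promoters, and they are known as places where cohesin and the proteins of the meiotic chromosome axis accumulate. Sae2 is needed to clip Spo11 from DSB ends, Tel1 (the yeast ATM kinase) limits further DSBs near an existing one, and Ndt80 is the transcription factor that takes cells out of meiotic prophase.

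CC-seq, which sequences DNA ends that carry covalently bound protein, was run on diploid *S. cerevisiae* taken 6 h after transfer to sporulation medium. All strains lacked *SAE2* and shared the alleles *his4X::LEU2*, *leu2::hisG* and *arg4-nsp*, the *ura3* and *lys2* mutations and *ho::LYS2*. Those with active Spo11 also carried *nuc1::LEU2*. The 5 replicates of *sae2*Δ had Ndt80 and Tel1, the 4 of *sae2*Δ *ndt80*Δ lacked Ndt80, the 4 of *sae2*Δ *tel1*Δ lacked Tel1, and another 5 replicates lacked Sae2, Ndt80 and Tel1 together. The control map is 1 library of *sae2*Δ *ndt80*Δ *spo11-Y135F*, whose Spo11 cannot cut DNA. Since every strain is *sae2*Δ, the other genotypes are called *ndt80*Δ, *tel1*Δ and *ndt80*Δ *tel1*Δ in what follows, and *sae2*Δ stands for the strain with both Ndt80 and Tel1. The control strain description does not list the *nuc1* replacement. A replicate is a replicate number in the sample titles, and p-values measure the spread between these replicates.

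The 20 Spo11-active libraries held from 1530684 to 8634134 nuclear reads outside the rDNA and the control held 2870992, which left a median of 3 to 74 reads per convergent gap and replicate and 77 in the control. Reads on the tested stretches of the deleted genes were few where the labels place a deletion. *NDT80* held 0 or 1 read in both *ndt80*Δ genotypes and 3 in the control, against 20 to 124 in the genotypes with Ndt80, *TEL1* held 0 to 29 in the *tel1*Δ genotypes, against 66 to 976 in the others, and *SAE2*, which no strain carries, held 0 to 8. Background was measured in each replicate as the reads per bp in 49 ORFs longer than 5.5 kb, where few DSBs form. It differed widely between replicates, from 2.08 to 51.6 hits per 1000000 reads (HpM) per kb, and was 73.0 in the control. The lowest and the highest of these values fell in *ndt80*Δ genotypes, in which 5 replicates came from numbered time courses. Of these, *ndt80*Δ replicate 3 and *ndt80*Δ *tel1*Δ replicate 4 shared time course 10, with backgrounds of 44.3 and 45.8 HpM per kb, and *ndt80*Δ replicate 4 and *ndt80*Δ *tel1*Δ replicate 5 shared time course 17, with 5.43 and 2.08. The part that background and time course play in the differences between genotypes was not tested beyond the values given with each result.

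Convergent gaps held little signal. Their reads per bp, Watson and Crick strands summed, averaged 34.9 ± 2.76 HpM per kb (SD, n = 5) in *sae2*Δ, 44.2 ± 15.4 (n = 4) in *ndt80*Δ, 47.7 ± 3.91 (n = 4) in *tel1*Δ and 42.9 ± 11.8 (n = 5) in *ndt80*Δ *tel1*Δ. The control stood at 92.0 HpM per kb, above every genotype mean, in a unit that counts background reads with the rest. Each replicate was therefore set against its own background. Convergent gaps stood at 1.78, 3.09, 1.74, 2.15 and 2.01 times background in the 5 *sae2*Δ replicates, and at 1.05, 2.58, 1.36 and 5.57 times in *ndt80*Δ. They stood at 2.02, 1.66, 1.62 and 1.47 times in *tel1*Δ, and at 3.28, 3.46, 1.98, 1.32 and 16.3 times in *ndt80*Δ *tel1*Δ. The means were 2.15 ± 0.55, 2.64 ± 2.06, 1.69 ± 0.23 and 5.27 ± 6.25 times, so the ranges of the 4 genotypes overlapped, and the high values belonged to the replicates with the lowest background. The control stood at 1.26 times. All 18 Spo11-active replicates but 1, *ndt80*Δ replicate 1, lay above it. Promoter-bearing gaps were far higher in the same replicates, at 4.86 to 231 times background for divergent and 3.0 to 152 times for tandem gaps, and in the control they were at 1.21 and 1.34 times, on either side of the convergent value.

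**Figure D1:**
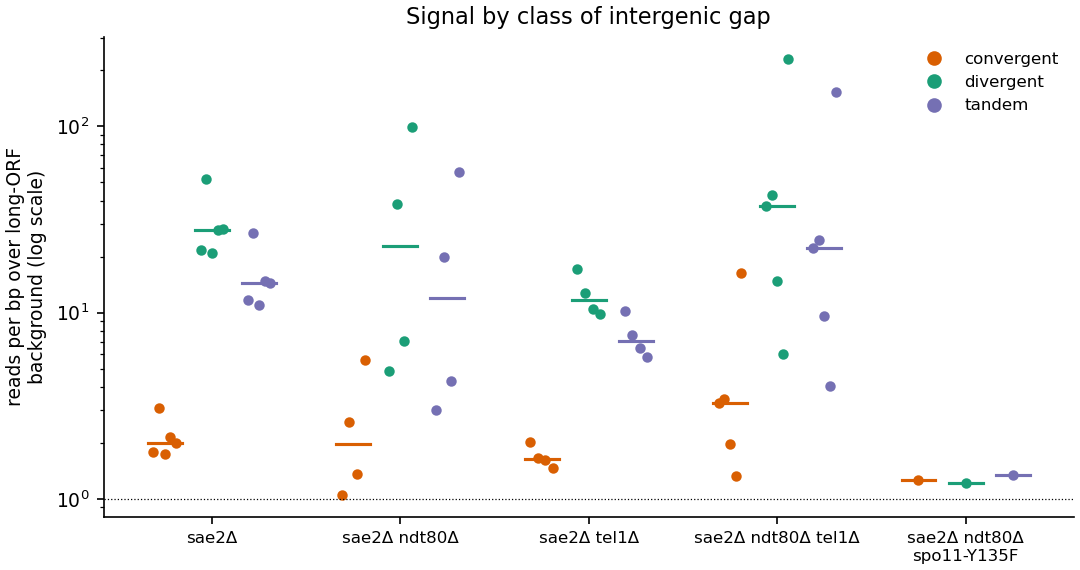
Reads per bp over the background of long ORFs (log scale) in each replicate for convergent, divergent and tandem gaps, by genotype. Points are replicates, horizontal bars are medians and the dotted line marks background; convergent gaps lie between 1.05 and 16.3 times background in the Spo11-active replicates, below both other classes of the same replicate, and the 3 classes lie between 1.21 and 1.34 times in the control.

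As a share of the intergenic signal of the 3 classes, background subtracted, convergent gaps counted for little where Spo11 was active. The control, by the same measure, stood at 14.5%, close to the 16.1% of base pairs that these gaps cover. With active Spo11 the values were 1.03, 1.13, 1.02, 1.17 and 1.03% in *sae2*Δ (1.08 ± 0.0682%, n = 5) and 1.62, 1.45, 1.67 and 1.40% in *tel1*Δ (1.53 ± 0.131%, n = 4). They were 1.59, 1.52, 1.73, 1.60 and 1.60% in *ndt80*Δ *tel1*Δ (1.61 ± 0.0777%, n = 5) and 0.358, 1.16, 1.59 and 1.20% in *ndt80*Δ (1.08 ± 0.517%, n = 4). Every replicate of both *tel1*Δ genotypes exceeded every *sae2*Δ replicate, whereas the *ndt80*Δ replicates ranged from below all *sae2*Δ replicates to among those of the *tel1*Δ genotypes. These shares sum over all members, so no test was applied. Per kb, the background-subtracted signal was 17.8 ± 2.13 HpM in *sae2*Δ, 15.8 ± 9.47 in *ndt80*Δ, 18.96 ± 2.53 in *tel1*Δ and 24.1 ± 6.17 in *ndt80*Δ *tel1*Δ, values that overlap. The control gave 18.998 HpM per kb by the same subtraction, on a background of 73.0 HpM per kb, which exceeds that of every Spo11-active replicate, so that this value and the genotype means are not on a like footing and the ratios to background given above are the ones to set beside each other.

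The typical convergent gap was at background. The median gap stood at 1.05 times background in *sae2*Δ, 1.02 in *ndt80*Δ, 1.08 in *tel1*Δ and 1.06 in *ndt80*Δ *tel1*Δ with the replicates of a genotype pooled, and at 1.28 in the control. Pooling divides summed reads by summed background, so replicates with more background reads weigh more. The mean of the replicate medians was 1.06, 1.16, 1.08 and 1.10 in the same order. Ratios to background of single gaps in a genotype, and counts of gaps above 2 or 5 times, are pooled in this way. Over single replicates the median gap ranged from 0.825 to 1.60 times. The gaps *RPL35A*-*UFD2* and *SEC28*-*RPN2*, which end a ribosomal protein gene beside a ubiquitin-chain enzyme and a coatomer subunit beside a proteasome subunit, were nearest to the median level over the 4 genotypes, the mean level of each genotype counting equally, at 1.03 times background each. Only 111 of 1002 convergent gaps (11.1%) exceeded background in all 18 replicates, against 1217 divergent (94.6%) and 2063 tandem gaps (84.7%). Over the control map, 60 convergent gaps (5.99%) were higher in all 18 replicates, against 1140 (88.6%) and 1549 (63.6%). In none of the 18 replicates were 107 convergent gaps higher than in the control, against 1 divergent and 6 tandem gaps. More than 2 times background was reached by 104, 54, 78 and 124 convergent gaps, in the order *sae2*Δ, *ndt80*Δ, *tel1*Δ and *ndt80*Δ *tel1*Δ, and by 23 in the control.

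What signal there was lay in few gaps. Over the 4 genotypes averaged, the 10 convergent gaps with the largest sums held 54.7% of the convergent signal, 50 gaps held 83.4% and 100 gaps 93.4%, and a single gap, *PEP8*-*YJL052C-A*, held 15.1%. The 10 largest divergent gaps held 12.4% of the divergent signal and the 10 largest tandem gaps 8.68%. The remaining convergent gaps scattered around 0 after subtraction. Above 5 times background in all 4 genotypes were 17 convergent gaps (1.70%), 688 divergent (53.5%) and 827 tandem gaps (34.0%), and no convergent gap passed 5 times in the control, where the highest stood at 2.97 times.

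**Figure D2:**
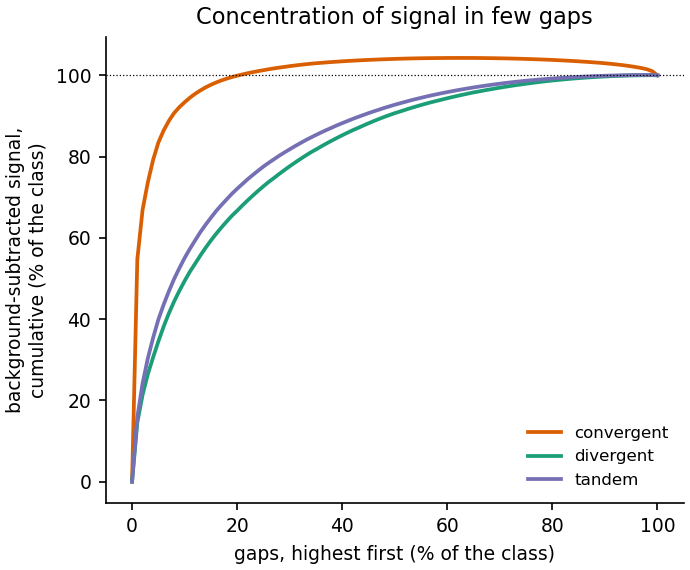
Cumulative background-subtracted signal (% of the class, y axis) against gaps ranked from the highest sum (% of the class, x axis), mean of the 4 Spo11-active genotypes. The convergent curve climbs to 93.4% within its first 100 of 1002 gaps and passes 100% before it returns, since gaps under background subtract signal, while the divergent and tandem curves rise slowly.

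The 8 convergent gaps with the highest mean level lay on 5 chromosomes. The highest was *YJL028W*-*YJL027C* (X, 391647 to 391832, 186 bp), at a mean level of 1758 HpM per kb over the 4 genotypes after background subtraction. *PEP8*-*YJL052C-A* (X, 337038 to 337883), beside a retromer subunit gene, followed at 1217 HpM per kb, *ADE3*-*YGR204C-A* (VII, 908775 to 909060), beside a one-carbon metabolism enzyme, at 1049 and *AHA1*-*YDR215C* (IV, 893928 to 894088), beside an Hsp90 co-chaperone, at 908. Below these 4 came *CHS5*-*JIP3* (XII, 789680 to 790668) at 556 HpM per kb and *MSS4*-*YDR209C* (IV, 870564 to 871035) at 451. *DON1*-*YDR274C* (IV, 1011274 to 1011588), beside a gene for a protein of the growing spore membrane, and *DBP2*-*CYB5* (XIV, 416282 to 416939), between an RNA helicase and cytochrome b5, stood at 380 and 367. The median convergent gap stood at 1.06 HpM per kb and the 95th percentile at 41.5. In the control these 8 gaps stood between 0.984 (*CHS5*-*JIP3*) and 1.74 times background (*ADE3*-*YGR204C-A*). *YJL028W*-*YJL027C* had 43 control reads, 1.10 times background with an exact Poisson 95% interval of 0.798 to 1.49 that covers counting error only.

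Many of the high gaps were bounded by a very short ORF. The shorter flanking ORF was at most 500 bp in 250 of the 1002 convergent gaps (25.0%), but in 15 of the 17 gaps above 5 times background (88.2%), in 34 of the 50 highest (68%) and in all 8 highest. Gaps with a short ORF covered 26.4% of the convergent base pairs and held 75.2% of the convergent signal. Even so, the median of these 250 gaps was 1.14 times background, against 1.01 for the other 752. The 2 gaps above 5 times background with both ORFs longer than 500 bp were *SWI1*-*HST2* and *CUP2*-*YRB30*. *SWI1* encodes a subunit of the SWI/SNF chromatin remodeller, and its gap stood at 16.3 times background as the mean of the genotypes.

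**Figure D3:**
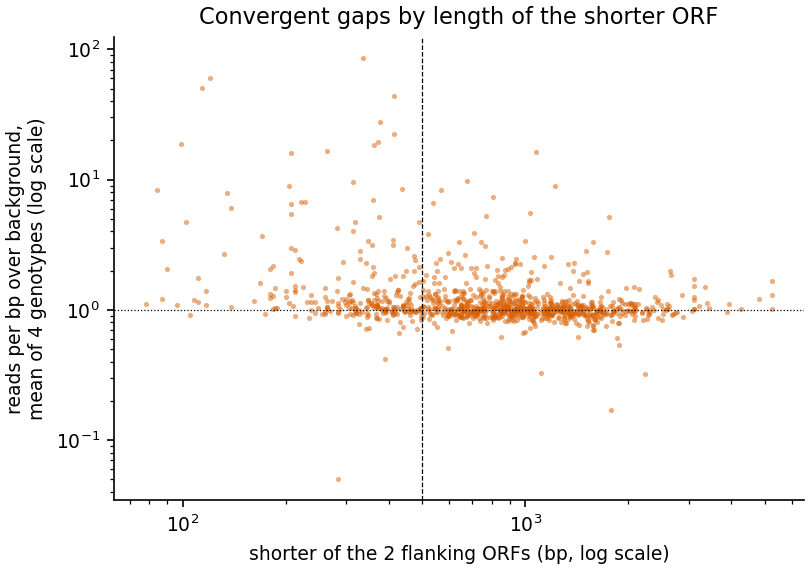
Length of the shorter flanking ORF (bp, log scale, x axis) against reads per bp over background (mean of the 4 Spo11-active genotypes, log scale, y axis) for the 1002 convergent gaps, values under 0.05 being drawn at 0.05. The dashed line marks 500 bp and the dotted line background; 15 of the 17 gaps that pass 5 times background in every genotype lie to the left of the dashed line, where most gaps still lie near 1.

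A short ORF can place the start of another gene close to a gap that holds no start by the rule. For each convergent gap, the distance was therefore measured to the nearest ORF start from which an ORF runs away from the gap. This distance was chosen after the values of the gaps had been seen and is a description. Its median was 1927 bp over all 1002 convergent gaps, 665 bp over the 17 gaps above 5 times background and 480 bp over the 8 highest. Such a start lay within 500 bp of only 26 convergent gaps (2.59%), and these gaps, with 2.68% of the convergent base pairs, held 37.4% of the convergent signal. Such a start lay within 200 bp of 7 gaps, which held 19.3% of the signal on 0.929% of the base pairs. Of these 7, 5 were above 5 times background in all 4 genotypes, namely *CHS5*-*JIP3*, *MSS4*-*YDR209C*, *YJL136W-A*-*RPS21B*, *YJL077W-B*-*ICS3* and *ADE3*-*YGR204C-A*. At *CHS5*-*JIP3* the start of *MID2*, which encodes a cell-wall stress sensor, lay 8 bp beyond the gap, inside the *JIP3* ORF that overlaps it. At *MSS4*-*YDR209C* the start of *CPP2* lay 39 bp beyond the gap, likewise inside the flanking *YDR209C*. *TDH1*, which encodes a glyceraldehyde-3-phosphate dehydrogenase, started 388 bp beyond *PEP8*-*YJL052C-A*, and *RNR2*, which encodes a ribonucleotide reductase subunit, started 572 bp beyond *YJL028W*-*YJL027C*. The other 11 of the 17 high gaps lay more than 500 bp from such a start, several of them not far beyond that limit. *TLD1* started 664 bp from *DON1*-*YDR274C*, *TPS1* 665 bp from *MEO1*-*VMA2* and *ADR1* 947 bp from *AHA1*-*YDR215C*. More than 1000 bp from such a start lay 7 of the 17 high gaps and 854 of all 1002 convergent gaps. *DBP2*-*CYB5* lay 3159 bp from the nearest such start and *RRP45*-*PHM6* 5963 bp. The flanking *CYB5* and *PHM6* are only 363 and 315 bp long, however, so their own starts lie nearer to these gaps. The 976 convergent gaps with no such start within 500 bp had a median of 1.03 times background. Of these, 224 had a flanking ORF of at most 500 bp, whose own start was not counted.

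The summed level of a band of gaps showed no steady trend with length. Gaps of 500 to under 1000 bp (120 gaps) stood at 3.55 ± 1.14 times background in *sae2*Δ (n = 5), against 2.16 ± 0.505 for gaps of 150 to under 200 bp (216 gaps), 1.51 ± 0.274 and 1.497 ± 0.275 for the next longer bands (353 and 275 gaps, up to 500 bp) and 2.35 ± 0.689 for the 38 gaps of 1000 bp or longer. The median gap, however, ranged over the replicates from 0.779 to 1.40 times in the shortest band and from 0.935 to 7.39 in the longest. From the shortest band to the longest, 3 of 216, 4 of 353, 3 of 275, 5 of 120 and 2 of 38 gaps passed 5 times background in all 4 genotypes. In the control the summed ratio was lower in the longer bands, from 1.36 in the shortest to 1.12 in the longest. The 46 gaps in the first 10 bp from the lower length limit stood at 1.01, 1.11, 1.06 and 1.16 times in the order *sae2*Δ, *ndt80*Δ, *tel1*Δ and *ndt80*Δ *tel1*Δ, and 48 gaps up to 10 bp shorter than the limit, which were not members, stood at 1.16, 1.20, 1.23 and 2.31 times. In the same order, the 14 gaps in the last 200 bp under the upper limit stood at 2.17, 3.11, 1.52 and 4.99 times, and 6 gaps up to 200 bp longer than the limit stood at 3.07, 3.46, 2.55 and 10.2 times. The 34 convergent gaps within 10 kb of a centromere were all under 5 times background in at least 1 genotype, and as a group they stood at 1.05, 1.13, 1.08 and 1.13 times, each under the control value of 1.20 times.

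Inside the gaps, the middle of the convergent gaps exceeded the outer 50 bp on each side, summed, in 18 of 18 replicates, by a ratio of 1.07 to 2.07 (median 1.29), and the ratio was 0.977 in the control. Leaving out the 8 highest gaps gave 1.03 to 2.12, again above 1 in 18 of 18. In the 17 gaps above 5 times background the ratio was 0.991 to 1.49 (median 1.16), above 1 in 17 of 18, and the control itself stood at 1.08. In these ratios longer gaps weigh more in the middle than in the outer part, so gap length and position are mixed. Cutting every gap into 10 equal parts removes this difference in weight. The middle parts then exceeded the outer parts over all convergent gaps by a smaller ratio, 1.03 to 1.71, with 0.985 in the control. The profile over all gaps was not symmetric. It sums over gaps, of which the 10 largest held 54.7% of the convergent signal, and was not made without them. The part that single gaps play in its shape was not tested. With gaps cut into 10 equal parts in chromosome order, the mean over *sae2*Δ replicates peaked at 2.91 times background in part 4, and stood at 1.86 in part 7 but at 2.27 in part 10, beside the right ORF. Spo11 cuts leave a Watson and a Crick end that are offset in a fixed way, so pairs of occupied bases at each offset were counted inside convergent gaps and divided by the count at offsets of 8 to 10 bp. At the offset of +1 bp the ratio was 1.17 to 3.11 in the 20 Spo11-active libraries (median 1.48), above the control value of 1.01 in 20 of 20. In long ORFs it was 1.00 to 4.54 (median 1.13) against 1.02 in the control, and higher in 18 of 20. Both strands contributed evenly, with 46.2 to 50.8% of the convergent reads on Watson and 50.1% in the control.

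**Figure D4:**
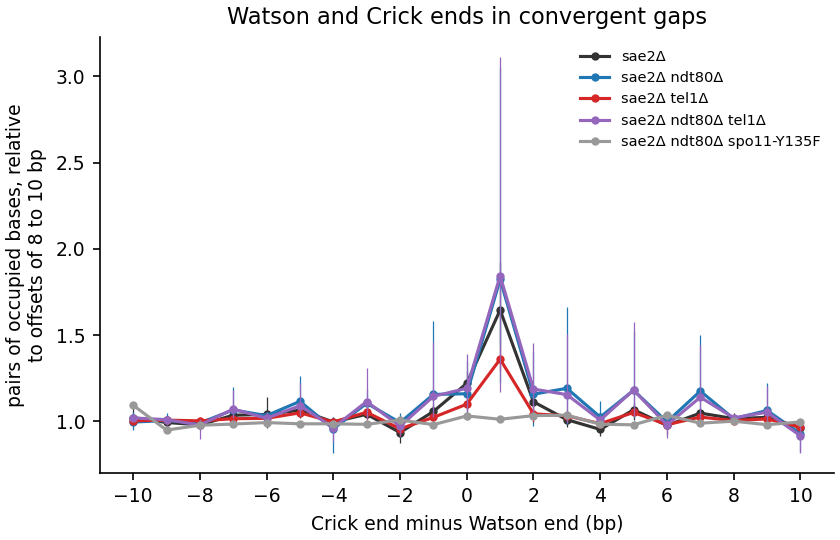
Pairs of occupied bases in convergent gaps (y axis, relative to offsets of 8 to 10 bp) by the distance of the Crick end from the Watson end (bp, x axis). Lines join the mean of the libraries of a genotype and vertical lines span the lowest to the highest library; the Spo11-active genotypes peak at +1 bp, with libraries from 1.17 to 3.11, while the control stays near 1, at 1.01.

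Hotspots called in the genotype averages gave the same order of classes. A hotspot peak fell in 26 convergent gaps in *sae2*Δ (2.59%), 31 in *ndt80*Δ, 28 in *tel1*Δ and 41 in *ndt80*Δ *tel1*Δ (4.09%), whereas 65.6 to 78.3% of divergent and 46.4 to 56.1% of tandem gaps held one. A peak was present in all 4 genotypes in 20 convergent gaps and in at least 1 genotype in 44, of which 7 also held a peak in the control. With the lower cut-off used for the control, 817 hotspots were called in its map. A control peak fell in 75 convergent gaps (7.49%), a share between those of divergent (5.59%) and tandem gaps (12.4%). The Spo11-active genotypes were called at the higher cut-off, so their counts and those of the control are not on a like footing. The paper reports far fewer control hotspots at the lower cut-off. The cause of this difference was not tested. The order of the 1002 gaps was similar between genotypes, with Spearman's rho of 0.69 to 0.78, and less so between any genotype and the control, at 0.20 to 0.28. These are descriptions over gaps that share libraries and depth.

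Of the 3 highest gaps in the control, 1 was also high with active Spo11. *YOL155W-A*-*HPF1* (XV, 27219 to 28702), beside a cell-wall mannoprotein gene, held 925 control reads, 2.97 times background (exact Poisson 95% interval 2.79 to 3.17). *DID4*-*MET14* (XI, 438545 to 438776), 1336 bp from the centromere, stood at 2.96 times (2.5 to 3.49) and *RPS23A*-*NUP57* (VII, 727731 to 728045) at 2.74 times (2.36 to 3.17). *YOL155W-A*-*HPF1* is among the 17 gaps above 5 times background and stood at 7.85 times as the mean of the genotypes, whereas *DID4*-*MET14* and *RPS23A*-*NUP57* stood at 1.01 and 1.08 times. *CUP2*-*YRB30*, another of the 17, stood at 2.51 times in the control and 9.74 times as the mean of the genotypes. At the other end, the lowest levels among the gaps with at least 1 read in every library were those of *YJR029W*-*RBH2* (X, 483613 to 483958) and *YBR012W-B*-*YBR013C* (II, 265141 to 265491), each beside a retrotransposon ORF. They stood at 0.319 and 0.421 times background with active Spo11 and at 0.152 and 0.190 times in the control.

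The effects of Ndt80 and Tel1 on single gaps were tested with edgeR on the read counts of 4710 gaps, 1000 of them convergent, relative to the reads in all gaps, so that a ratio compares shares of intergenic reads. Each ratio is presence over absence of the gene, and p-values were adjusted over all 4710 gaps (Benjamini-Hochberg). The 4 comparisons share genotypes and are not independent. With Tel1 present, no convergent gap and no gap at all passed the test of Ndt80 (0 called, background 0%), which does not show that there was no effect. In this comparison 119 convergent gaps had an unadjusted p under 0.05 (18.7% of all gaps did), and DESeq2 also called 0 convergent gaps (0.34% of all gaps). With Tel1 absent, Ndt80 changed 8 of 1000 convergent gaps, 7 of them higher without Ndt80, against a background of 14% of all gaps (5.27% higher with Ndt80 and 8.7% higher without it). With Ndt80 present, Tel1 changed 42 convergent gaps, against 21.4% of all gaps. Of the 42, 39 were higher without Tel1, where the background of that direction was 10.4% of all gaps (11% for the other). With Ndt80 absent, Tel1 changed 15 convergent gaps, against 20.8% of all gaps, and 12 of them were higher without Tel1 (background 7.43%, and 13.4% for the other direction). In this fit by genotype, the share of convergent gaps called was below the background in each comparison with calls. It was above it for Tel1 with Ndt80 present when *sae2*Δ and *tel1*Δ were fitted alone (94.6 against 73.6%). Without the time-course replicates it was above for Ndt80 with Tel1 absent (72.7 against 64.2%) and Tel1 with Ndt80 absent (70.9 against 62%). In the other comparisons of that fit it was below (9.89 against 10.9% and 50.7 against 53.1%). Among the 17 convergent gaps above 5 times background, 4, 8 and 9 were called in the 3 comparisons with calls in the fit by genotype. Among the other 983 there were 4, 34 and 6 calls. The like share among the 688 divergent and 827 tandem gaps above 5 times background is not given here. These counts therefore do not show whether high convergent gaps differ from other high gaps. DESeq2 called 17, 57 and 35 of all 1000 convergent gaps, against 17.8, 24.4 and 23.2% of all gaps. No convergent gap passed the edgeR test of the interaction of Ndt80 and Tel1 (73 had an unadjusted p under 0.05), against 1.36% of all gaps, so differences in effect between the Tel1 or Ndt80 backgrounds were not established for any of them. DESeq2 was not run for the interaction. Counts rested on single replicates and on the genotypes fitted together. Leaving out *ndt80*Δ *tel1*Δ replicate 4 gave 37 convergent calls for Ndt80 with Tel1 absent (25.7% of all gaps were called) and 116 for Tel1 with Ndt80 absent (36.2%). Leaving out *tel1*Δ replicate 2 or 4 gave 5 for the former (9.7 and 9.8%), leaving out *sae2*Δ replicate 2 gave 27 for Tel1 with Ndt80 present (17%), and leaving out *ndt80*Δ replicate 2 gave 5 for Ndt80 with Tel1 present (1.13%). With *sae2*Δ and *tel1*Δ fitted alone, 944 convergent gaps were called for Tel1 with Ndt80 present, when 73.6% of all gaps were. With the time course as a block, which pairs the 2 sets of replicates named above, the convergent calls were 23 and 258 for Ndt80 with Tel1 present and absent and 309 and 349 for Tel1 with Ndt80 present and absent, against 7.13, 40.8, 45.1 and 48% of all gaps. The block turned the main direction of the calls in the comparisons that involve *ndt80*Δ *tel1*Δ. With Tel1 absent, 248 of the Ndt80 calls were higher with Ndt80 and 10 without it, against 1 and 7 by genotype alone, and for Tel1 with Ndt80 absent, 329 were higher with Tel1 and 20 without it, against 3 and 12. With Tel1 present 21 of the 23 Ndt80 calls were higher without Ndt80, and for Tel1 with Ndt80 present 305 of the 309 were higher without Tel1.

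Most convergent gaps had ratios near those of long ORFs. The median log2 ratio of the 1000 convergent gaps was -1.16 for Ndt80 with Tel1 present, 0.54 for Ndt80 with Tel1 absent, -1.10 for Tel1 with Ndt80 present and 0.63 for Tel1 with Ndt80 absent. The medians over the 49 long ORFs were -1.25, 0.64, -1.09 and 0.83 and those over all gaps -0.41, 0.23, -0.38 and 0.39, in the same order. The 17 convergent gaps above 5 times background had medians of -0.00, -0.02, -0.49 and -0.62, so that for the Tel1 comparison with Ndt80 absent they differed in sign from the other 983 convergent gaps (0.64). Calls fell mainly on high gaps, since 8 of 8, 36 of 42 and 15 of 15 called gaps were among the highest 10% of convergent gaps by level. After background subtraction, which left 355 convergent gaps to test, 8 of 8, 38 of 42 and 15 of 15 were called again, and edgeR called 23, 57 and 45 convergent gaps in all against 25.1, 34.8 and 33% of all gaps. Without the 5 time-course replicates, 728 and 710 convergent gaps were called for Ndt80 with Tel1 absent and for Tel1 with Ndt80 absent, nearly all higher with the gene present (718 and 695), and 508 were called for Tel1 with Ndt80 present (504 higher without Tel1), while 64.2, 62 and 53.1% of all gaps were called. In the replicates that were left, background was 10.7 and 10.1 HpM per kb in *ndt80*Δ *tel1*Δ, against 21.3 to 33.5 in *tel1*Δ and 51.6 and 12.3 in *ndt80*Δ. Of the gaps called with all replicates, 6 of 8, 14 of 15 and 42 of 42 were called there too. In the same order, 72.7, 70.9 and 50.7% of all convergent gaps were called there, in a fit that reuses part of the same data. For Ndt80 with Tel1 present 99 convergent gaps were called without these replicates, against 10.9% of all gaps and all higher without Ndt80. Subtraction and omission together gave 18, 65, 112 and 63 convergent gaps, in the order of the medians above, against 10.4, 46.7, 54 and 43.1% of all gaps.

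*MEO1*-*VMA2* (II, 491057 to 491268), beside the gene for a subunit of the vacuolar proton pump, had the largest ratio of Tel1 with Ndt80 absent. In reads per 1000000 gap reads (RPM) it stood at 41.0, 48.7, 53.8, 49.0 and 41.4 in *sae2*Δ and 112, 83.7, 54.2 and 47.1 in *ndt80*Δ. It held 122, 77.1, 78.7 and 106 in *tel1*Δ and 363, 261, 310, 133 and 360 in *ndt80*Δ *tel1*Δ. All *ndt80*Δ *tel1*Δ replicates lay above those of every other genotype. A lack of overlap between compared genotypes was part of the rule that named this gap, *RRP45*-*PHM6* and *QDR1*-*RPI1*. The log2 ratio of Tel1 was -1.95 ± 0.28 (SE) with Ndt80 absent, or 3.85-fold higher without Tel1 (edgeR adjusted p = 4.46e-05), and -1.04 ± 0.27 with Ndt80 present (edgeR adjusted p = 0.00764). The latter call was lost with DESeq2 (adjusted p = 0.108) and, in edgeR, with the nuclear total as library size (adjusted p = 0.109) or TMM factors (adjusted p = 0.135). For Ndt80 with Tel1 absent the ratio was -1.57 ± 0.27 (edgeR adjusted p = 0.000556). *TPS1*, a trehalose synthesis gene that runs away from the gap, starts 665 bp off, and the flanking *MEO1*, which runs toward it, is 207 bp long.

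*RRP45*-*PHM6* (IV, 1021665 to 1022006), between an RNA exosome subunit gene and a phosphate-regulated gene, behaved in a like way. It held 47.7, 42.2, 52.0, 47.2 and 41.8 RPM in *sae2*Δ and 94.3, 66.1, 88.2 and 131 in *ndt80*Δ. It held 111, 85.2, 108 and 85.1 in *tel1*Δ and 256, 204, 320, 188 and 365 in *ndt80*Δ *tel1*Δ. The *sae2*Δ replicates were the lowest and those lacking both proteins the highest, with no overlap. The log2 ratio of Tel1 was -1.49 ± 0.21 with Ndt80 absent (edgeR adjusted p = 4.31e-05) and -1.08 ± 0.21 with Ndt80 present (edgeR adjusted p = 0.000689), a call that was lost with the nuclear total as library size (-0.77, edgeR adjusted p = 0.0833). The ratio of Ndt80 was -1.45 ± 0.21 with Tel1 absent (edgeR adjusted p = 0.000181) and -1.04 ± 0.21 with Tel1 present, which missed the threshold (edgeR adjusted p = 0.0649).

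*QDR1*-*RPI1* (IX, 136109 to 136653), between a drug transporter gene and a transcription factor gene, went the other way for Tel1. It held 269, 151, 140, 151 and 206 RPM in *sae2*Δ and 96.5, 84.4, 95.3 and 89.8 in *tel1*Δ. It held 314, 302, 422 and 326 in *ndt80*Δ and 118, 106, 182, 229 and 157 in *ndt80*Δ *tel1*Δ. Genotypes with Tel1 were higher than their *tel1*Δ counterparts without overlap, by a log2 ratio of 1.00 ± 0.22 with Ndt80 present (edgeR adjusted p = 0.00229) and 1.11 ± 0.21 with Ndt80 absent (edgeR adjusted p = 0.000752). For Ndt80 with Tel1 absent the ratio was -0.79 ± 0.22 (edgeR adjusted p = 0.0200), and it was -0.29 without the time-course replicates, where the call was lost (edgeR adjusted p = 0.197), and -0.42 with the time course as a block (edgeR adjusted p = 0.0721). It was also lost without *tel1*Δ replicate 2 or 4 or without *ndt80*Δ *tel1*Δ replicate 3, with edgeR adjusted p of 0.0642, 0.0554 and 0.0546.

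Of the 8 highest gaps, 2 with a start under 50 bp away moved in opposite directions with Tel1. *MSS4*-*YDR209C*, beside a lipid kinase gene, held 255 to 383 RPM in *sae2*Δ and 281 to 357 in *ndt80*Δ, against 445 to 497 in *tel1*Δ and 424 to 543 in *ndt80*Δ *tel1*Δ. Its log2 ratio of Tel1 was -0.57 ± 0.12 with Ndt80 present (edgeR adjusted p = 0.00204) and -0.62 ± 0.13 with Ndt80 absent (edgeR adjusted p = 0.00120). *CHS5*-*JIP3*, beside the gene of a protein that carries chitin synthase to the cell surface, held 1060 to 1397 RPM in *sae2*Δ and 1061 to 1319 in *ndt80*Δ, against 756 to 888 in *tel1*Δ and 694 to 975 in *ndt80*Δ *tel1*Δ. Its log2 ratio of Tel1 was 0.57 ± 0.13 (edgeR adjusted p = 0.00232) and 0.52 ± 0.12 (edgeR adjusted p = 0.00453). Neither gap passed the test for Ndt80, with ratios of -0.10 to 0.02. With the nuclear total as library size both *MSS4*-*YDR209C* calls were lost, at a ratio of -0.26 with Ndt80 present (edgeR adjusted p = 0.468) and of -0.67 with Ndt80 absent (edgeR adjusted p = 0.0697), so that only the former ratio shrank. The call with Ndt80 present was also lost with TMM factors (-0.27, edgeR adjusted p = 0.439) and DESeq2 (-0.30, adjusted p = 0.382). The *CHS5*-*JIP3* call with Ndt80 absent was lost as well, at 0.45 (edgeR adjusted p = 0.169), and at 0.31 with TMM factors (edgeR adjusted p = 0.387) and 0.28 with DESeq2 (adjusted p = 0.397). With the 2 genotypes alone it was 0.52 (edgeR adjusted p = 0.0788).

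Another 3 of the 8 highest gaps passed a test. *PEP8*-*YJL052C-A*, the gap with the largest signal, held 1274, 1630, 1041 and 841 RPM in *ndt80*Δ and 3273, 3354, 2511, 1535 and 1677 in *ndt80*Δ *tel1*Δ. Its Tel1 ratio (log2) was -1.05 ± 0.22 (edgeR adjusted p = 0.00148), although the highest *ndt80*Δ replicate overlapped the lowest of the other genotype, and with Ndt80 present it was -0.49 ± 0.21 and missed the threshold (edgeR adjusted p = 0.110). *DON1*-*YDR274C* held 89.7 to 259 RPM in *ndt80*Δ and 140 to 536 in *ndt80*Δ *tel1*Δ, which overlap, and its ratio of Tel1 was -0.95 ± 0.31 (edgeR adjusted p = 0.0307). This call was lost with the 2 genotypes alone (edgeR adjusted p = 0.162) and without *ndt80*Δ replicate 3 or 4 or *ndt80*Δ *tel1*Δ replicate 1 or 2 (edgeR adjusted p from 0.0906 to 0.112). *DBP2*-*CYB5* was lower with Ndt80 in the absence of Tel1, at 324 to 421 RPM in *tel1*Δ and 432 to 576 in *ndt80*Δ *tel1*Δ with no overlap, a log2 ratio of -0.54 ± 0.12 (edgeR adjusted p = 0.00501). With the nuclear total as library size the ratio was -0.76 and missed the threshold (edgeR adjusted p = 0.0540).

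*YJL028W*-*YJL027C* was called as higher with Ndt80 in the absence of Tel1. It was the 1 such convergent gap in the edgeR fit by genotype alone, against 2 with DESeq2, 4 after background subtraction, 248 with the time course as a block and 718 without the time-course replicates. It held 731 to 871 RPM in *tel1*Δ and 157 to 471 in *ndt80*Δ *tel1*Δ, a log2 ratio of 1.33 ± 0.24 with no overlap (edgeR adjusted p = 0.000711), or 2.51-fold. With Tel1 present the replicates did not overlap either, at 667 to 794 in *sae2*Δ and 320 to 652 in *ndt80*Δ, but the ratio of 0.61 ± 0.24 missed the threshold (edgeR adjusted p = 0.230). *AHA1*-*YDR215C* was higher without Tel1 by a log2 ratio of -1.17 ± 0.27 with Ndt80 present (edgeR adjusted p = 0.00358) and -0.93 ± 0.28 with Ndt80 absent (edgeR adjusted p = 0.0207). DESeq2 did not call the former (-0.90, adjusted p = 0.0706), nor did edgeR with TMM factors (-0.88, edgeR adjusted p = 0.0970). The latter was lost with the 2 genotypes alone (edgeR adjusted p = 0.127) and without *ndt80*Δ replicate 3 or 4 or *ndt80*Δ *tel1*Δ replicate 1 or 2, with edgeR adjusted p of 0.0664, 0.0524, 0.0764 and 0.0588. *ADE3*-*YGR204C-A* showed ratios of only 0.01 to 0.10 in the 4 comparisons, with SE of 0.14, and its replicates of all genotypes lay between 420 and 634.

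**Figure D5:**
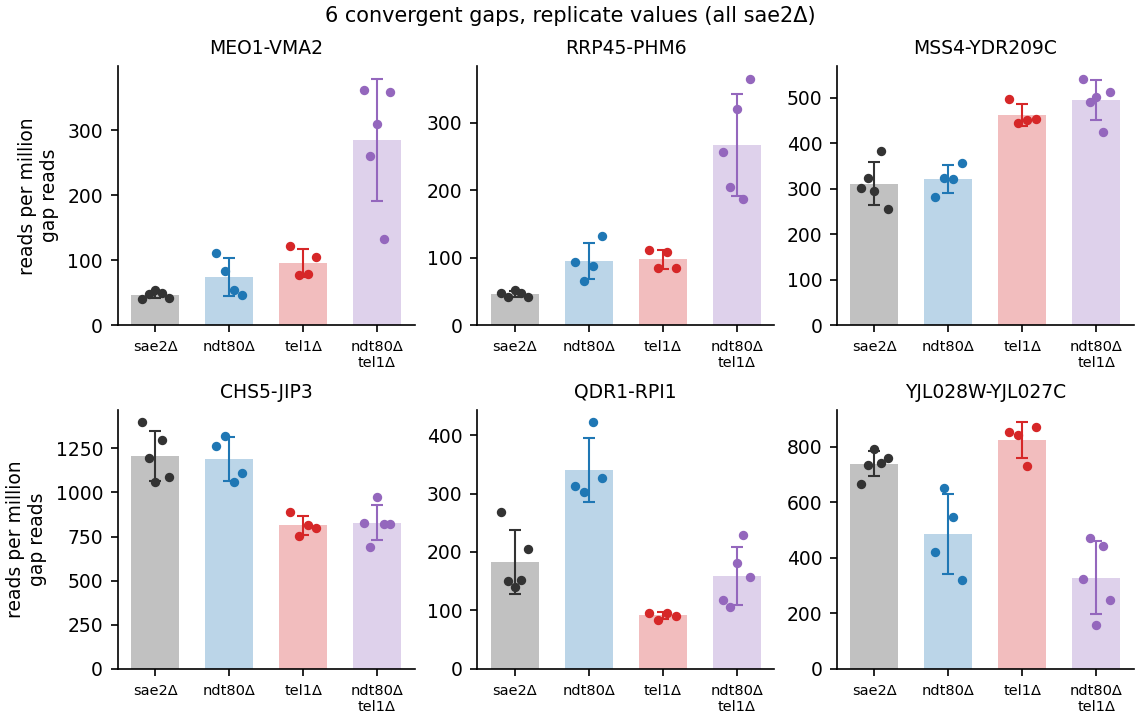
RPM at 6 convergent gaps in the 4 Spo11-active genotypes (all *sae2*Δ, y axes from 0, a scale for each gap). Points are replicates, bars the mean and error bars the SD; *MEO1*-*VMA2*, *RRP45*-*PHM6* and *MSS4*-*YDR209C* are higher in *tel1*Δ genotypes, *CHS5*-*JIP3* and *QDR1*-*RPI1* are lower in them, and *YJL028W*-*YJL027C* has lower means in *ndt80*Δ genotypes, a difference that passed the test with Tel1 absent and missed it with Tel1 present.

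Among gaps of lower level, *HSP12*-*IES1* (VI, 107586 to 107851), beside a small heat-shock protein gene, and *CYC1*-*UTR1* (X, 526665 to 526883), beside the cytochrome c gene, had the largest ratios of Tel1 with Ndt80 present that met the rule for naming. *HSP12*-*IES1* held 9.35 to 13.9 RPM in *sae2*Δ and 27.6 to 46.8 in *tel1*Δ, a log2 ratio of -1.75 ± 0.39 (edgeR adjusted p = 0.00257). *CYC1*-*UTR1* held 9.79 to 14.4 and 30.6 to 44.4, a ratio of -1.68 ± 0.44 (edgeR adjusted p = 0.00803). Replicates that do not overlap were part of the rule for naming, so their separation here is no added support. In *sae2*Δ the replicates of *HSP12*-*IES1* stood at only 1.08 to 2.96 times background and those of *CYC1*-*UTR1* at 1.65 to 3.16 times. The median long ORF had a ratio of -1.09 in the same comparison. With Ndt80 absent neither passed the test, at -0.36 and -0.37. *DPH1*-*YIL102C-A* (IX, 173029 to 173364), beside a diphthamide synthesis gene, was higher with Tel1, by 0.84 ± 0.21 with Ndt80 present (edgeR adjusted p = 0.00591) and 0.59 ± 0.20 with Ndt80 absent (edgeR adjusted p = 0.0447), where its replicates overlapped. The latter call was lost without *ndt80*Δ replicate 1, 3 or 4 or *ndt80*Δ *tel1*Δ replicate 1, 2 or 3, with edgeR adjusted p from 0.0647 to 0.123. It was also lost with the nuclear total (0.53, edgeR adjusted p = 0.174), TMM factors (0.41, edgeR adjusted p = 0.171), the 2 genotypes alone (edgeR adjusted p = 0.253) and DESeq2 (0.37, adjusted p = 0.230).

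Convergent gaps beside genes that the strain descriptions list as replaced or mutated were kept among the members and named apart. *SSB1*-*HO* stood at 5.18 times background as the mean of the genotypes, *CBP1*-*NUC1* at 1.16 times and *YSC83*-*ARG4* at 1.05 times. None of the 3 passed the test in any comparison.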

How the data were processed

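CC-seq counts were analysed in 21 libraries. Per the labels and the study's methods, the authors mapped paired reads with Bowtie2, through their TermMapper scripts, to a Cer3 genome that carries 2 inserts on chromosome III, and deposited the number of Read 1 ends at each base of either strand as whole counts, not normalised. Mapping-quality filters and duplicate handling are not given in the sources used here. The control file stacks 2 blocks, and the first was used (3622725 reads). R64 names and coordinates come from the RefSeq gene table, and no genome sequence was used.

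Libraries sharing a replicate number were summed, giving 18 replicates. Gap counts were fitted in 1 model with edgeR 4.0.16 (R 4.3.3; glmQLFit, glmQLFTest), the reads in all gaps being the library size, after filtering with filterByExpr, and adjusted by Benjamini-Hochberg with a threshold of 0.05. DESeq2 1.42.0 was an alternative, as were TMM factors, the nuclear total, 2 genotypes alone, background subtraction, trimmed gaps, other lengths, blocks and left-out replicates. The time course as a block, subtraction together with no time-course replicates, removal of the 8 highest gaps, and both control blocks were added after seeing the data. Simulated counts for Ndt80 with Tel1 present (4710 gaps, 200 changed 4-fold) gave 200 recovered and 7 others. They had a fixed spread between replicates (dispersion 0.05) and no differences in background or time course. In the real counts the log2 ratios of *RPL35A*-*UFD2* and *SEC28*-*RPN2* had SE of 0.85 and 0.88 in this comparison. The simulation therefore cannot show what the fit would detect in such gaps. Same-numbered replicates deviated together in every pair for Ndt80 with Tel1 present (r = 0.306, 0.645 and 0.619), where a replicate block also gave 0 calls, but not in every pair elsewhere (0.0800 to 0.555 for Ndt80 with Tel1 absent, -0.173 to 0.350 and -0.752 to 0.711 for Tel1 with Ndt80 present and absent). Replicates of *ndt80*Δ and *ndt80*Δ *tel1*Δ that share a time course, as the names of the deposited maps give it, deviated together (r = 0.889 and 0.882). Named gaps are the 8 highest, 2 nearest the median, the 2 lowest of those with reads in every library, 3 highest in the control, up to 2 per direction and comparison with at least 50 mean reads and no overlap, those beside replaced or mutated strain genes, and members behind counts of 5 or fewer. The members and lists were chosen with earlier results of these data known. Hotspots were called with a window of 201 bp, merging within 200 bp, at least 25 bp and a threshold of 0.193 HpM, or 0.125 HpM for the control. The paper's calling also set a minimum number of reads, which is not among these settings. Tables and figures were made in Python 3.11.15 (pandas 2.3.3, numpy 2.4.6, matplotlib 3.10.9, scipy 1.17.1). Intervals cover counting error only.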

Additional observations from a re-analysis of the deposited data

Results flagged for a closer look

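In 92 groups of 4 or 5 replicates, 3 held a replicate far from the rest by Dixon's criterion, where chance alone picks about 1 in 20 groups. In *ndt80*Δ *tel1*Δ, convergent signal reached 16.3 times background in replicate 5, against 1.32 to 3.46 in the other replicates, and this replicate had the lowest background, 2.08 HpM per kb. At *MSS4*-*YDR209C*, *tel1*Δ replicate 1 held 497 RPM against 445 to 454 in the others. At *SEC28*-*RPN2*, a gap at background, *ndt80*Δ *tel1*Δ replicate 4 held 44.7 RPM against 1.15 to 9.59, and its background of 45.8 HpM per kb was the highest of the genotype. The part that background plays in these values was not tested.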

How the results depend on the processing

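The counts of convergent gaps called depended most on the replicates and genotypes fitted, and the share of all gaps called in the same fit, given in brackets, moved with them. Without the time-course replicates they were 99 (10.9%) and 728 (64.2%) for Ndt80 with Tel1 present and absent and 508 (53.1%) and 710 (62%) for Tel1 with Ndt80 present and absent, with background subtracted as well 18 (10.4%), 65 (46.7%), 112 (54%) and 63 (43.1%), and with the time course as a block 23 (7.13%), 258 (40.8%), 309 (45.1%) and 349 (48%). In both fits without subtraction most calls for Ndt80 with Tel1 absent (718 of 728 and 248 of 258) and for Tel1 with Ndt80 absent (695 of 710 and 329 of 349) were higher with the gene present, against 1 of 8 and 3 of 15 with all replicates fitted by genotype alone. For Ndt80 with Tel1 present, every library as its own replicate gave 5 (1.32%), and leaving out 1 replicate gave 0 to 5. For Ndt80 with Tel1 absent, TMM factors gave 15 (15.7%), the library series as a block 14 (22.1%), background subtraction 23 (25.1%), DESeq2 17 (17.8%), and leaving out 1 replicate 5 to 37. For Tel1 with Ndt80 present, the 2 genotypes alone gave 944 (73.6%), every library 71 (28.9%), and leaving out 1 replicate 27 to 39. For Tel1 with Ndt80 absent, TMM factors gave 28 (19.3%), the 2 genotypes alone 9 (8.18%), the series block 26 (30.8%), background subtraction 45 (33%), DESeq2 35 (23.2%), and leaving out 1 replicate 12 to 116. The replicate block gave 7 (11.3%), 25 (16.7%) and 15 (19.9%) for the last 3 comparisons, in which not every same-numbered pair deviates together. The cause of these differences was not tested.

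For *sae2*Δ and *tel1*Δ the median over gaps was 1.06 and 1.08 times background, and without the 8 highest gaps the class stood at 1.59 and 1.41 times. The percent of intergenic signal in *sae2*Δ, *tel1*Δ and *ndt80*Δ *tel1*Δ was 0.935, 1.33 and 1.45 without the 50 bp beside each ORF, 0.970, 1.35 and 1.49 for gaps of 250 to 1000 bp, 0.973, 1.36 and 1.44 without gaps that hold RNA genes, and 0.535, 0.896 and 0.994 without the 8 highest. Leaving out 1 replicate gave 1.92 to 2.26, 1.67 to 3.17, 1.58 to 1.76 and 2.51 to 6.26 times background, in the order *sae2*Δ, *ndt80*Δ, *tel1*Δ and *ndt80*Δ *tel1*Δ, and shares of 1.05 to 1.09, 0.908 to 1.32, 1.49 to 1.58 and 1.58 to 1.63%. Of 483 values of named ratios under alternatives, 442 kept their side of the threshold, 41 lost the call and 0 changed sign. A median of 3 to 74 reads per gap limits what single low gaps can show.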
